A study of Equus caballus with 9 samples.

Results

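Equine cells grown out of blood after electroacupuncture were set against 2 kinds of untreated control cell at once, and the genes described here are those whose level in the blood-derived cells lay beyond both. Electroacupuncture passes current between acupuncture needles. The EA-ADSC group (3 arrays) holds cells cultured from the blood mononuclear cells of 3 treated horses, labelled Horse R1, Ap2 and Am3, with blood drawn 2 h after treatment, and the labels call them mesenchymal cells mobilized by electroacupuncture. The BM-MSC group (3 arrays) holds bone marrow cells of 3 other horses, and the AD-MSC group (3 arrays) holds cells of tailhead fat whose labels name no horse. The control horses received no treatment. No genotype, breed or age was given for any group in the sources used here. The same growth protocol stands on all 9 samples: unattached cells were discarded at 96 h of culture on plastic (medium with 15% serum), and from the rest 100 ng of RNA entered the amplification.

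For each probe set the mean of the EA-ADSC arrays minus the average of the BM-MSC mean and the AD-MSC mean was taken on the log2 scale. A probe set was kept for description where this difference had the same sign against each control and all 3 EA-ADSC arrays lay outside the range of the 6 control arrays. That held for 2053 of 30559 probe sets, 1034 above and 1019 below the controls, or 3.38% and 3.33% of all probe sets. Of these, 628 (2.06% of all) also passed limma at an adjusted p under 0.05, and they are the members described below. Because the range criterion reads the same arrays as the test, the number of members is a description and supports nothing.

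Mesenchymal stromal cells are connective tissue cells that stick to plastic, build a collagen matrix and secrete growth factors, and they can be grown from marrow, fat and many other tissues. Their gene expression keeps traces of the tissue of origin. They are scarce in circulating blood, and treatments that bring more of them into it are said to mobilize them.

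Tissue, treatment and horse changed together between the EA-ADSC group and each control group, and these cannot be told apart. Whether the arrays of the 3 groups were run together is not stated in the labels, so an array batch that follows the groups cannot be told apart from them either. Nor can fewer cells of a type and less RNA per cell in such bulk samples. The p-values measure the spread between these arrays, and the AD-MSC arrays may or may not be separate horses. The deposited table held log2 intensities from 0.86 to 13.56, with array medians of 4.56 to 4.66. Detection was not judged, so where a group lay below 4.62, the median over all arrays, a fold against it applies to the values as deposited. All levels below are log2 intensities given array by array (replicates 1, 2 and 3), differences are log2 with their standard error, folds are their antilogs, and each adjusted p is limma's over all 30559 probe sets.

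In the test against the average of both controls, 453 probe sets were higher in EA-ADSC (1.48% of those tested) and 390 were lower (1.28%). The members made up 347 of the higher ones (1.14%) and 281 of the lower ones (0.92%), naming 288 and 211 distinct genes. Among the higher members the median log2 difference was 1.18, with 211 at least 2-fold and 76 at least 4-fold. Among the lower members it was -1.03, with 143 at least 2-fold and 41 at least 4-fold. Another 215 probe sets passed the test while their EA-ADSC arrays did not all lie outside the control range, which is called overlap below, and 1425 lay outside the control range without passing it.

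A member need not lie equally far from both controls. A difference of at least 2-fold against each control was held by 126 of the 347 higher members (36.3%) and by 90 of the 281 lower ones (32%). The difference from AD-MSC was the larger for 272 of the higher and 199 of the lower members. When each control was tested alone, EA-ADSC differed from both in 72 of the higher members, from AD-MSC only in 252, from BM-MSC only in 6 and from neither in 17. For the lower members these numbers were 52, 192, 20 and 17. AD-MSC and BM-MSC themselves differed in 103 of the higher members, with BM-MSC above AD-MSC in 100 of them, and in 83 of the lower members, with AD-MSC above BM-MSC in 69. Over all probe sets EA-ADSC was called higher than BM-MSC in 0.35% and lower in 0.465%, and higher than AD-MSC in 3.49% and lower in 3.43%. AD-MSC was called higher than BM-MSC in 2.83% and lower in 3.25%.

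**Figure D1:**
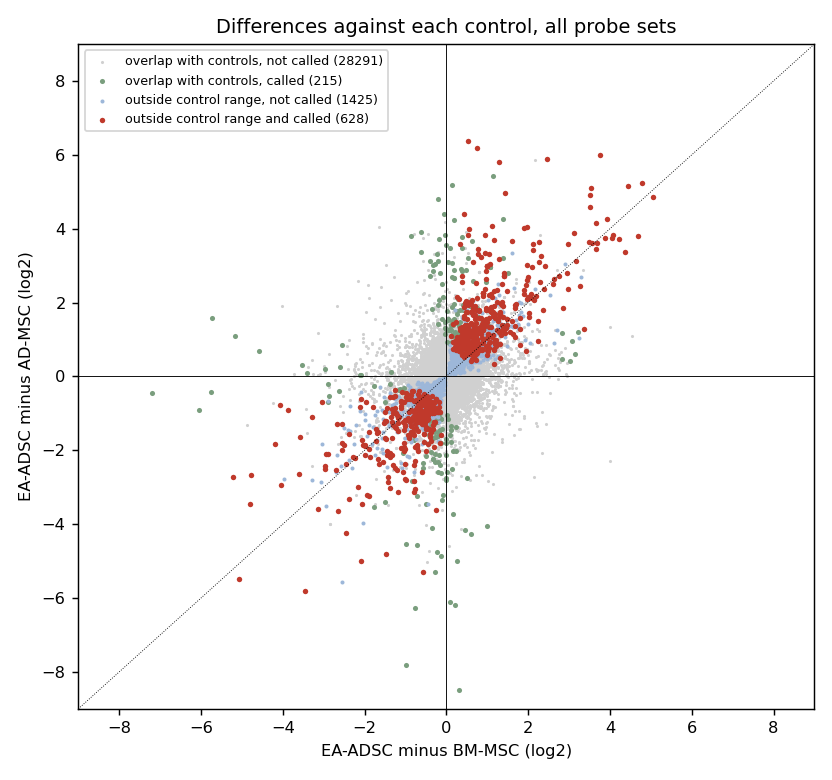
Each point is a probe set, with the log2 difference of EA-ADSC minus BM-MSC on the horizontal axis and of EA-ADSC minus AD-MSC on the vertical axis, and the dotted line marks equal differences. The 628 members lie in the upper right and lower left, and most sit further from 0 on the vertical axis, as 272 of 347 higher and 199 of 281 lower members differed more from AD-MSC.

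The genes with the largest difference from the nearer control are shown first, 15 in each direction. On the high side stood secreted growth factors and cytokines (FGF5, IL11), serine protease inhibitors of clade B (SERPINB2, SERPINB10), a prohormone convertase (PCSK1), membrane proteins (SLITRK4, TPBG, BDKRB1, ADAM23, SLC46A2) and cytoskeletal genes (DES, PDLIM3, ANKRD1, ARHGDIB), besides the growth factor carrier IGFBP3. On the low side stood complement proteases (C1R, C1S), enzymes of detoxification and peroxide removal (EPHX1, GPX3), receptors (IFNGR2, FCER1G, PDGFRL), the surface protease FAP and the homeobox gene HOXC6, with GMFG first.

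**Figure D2:**
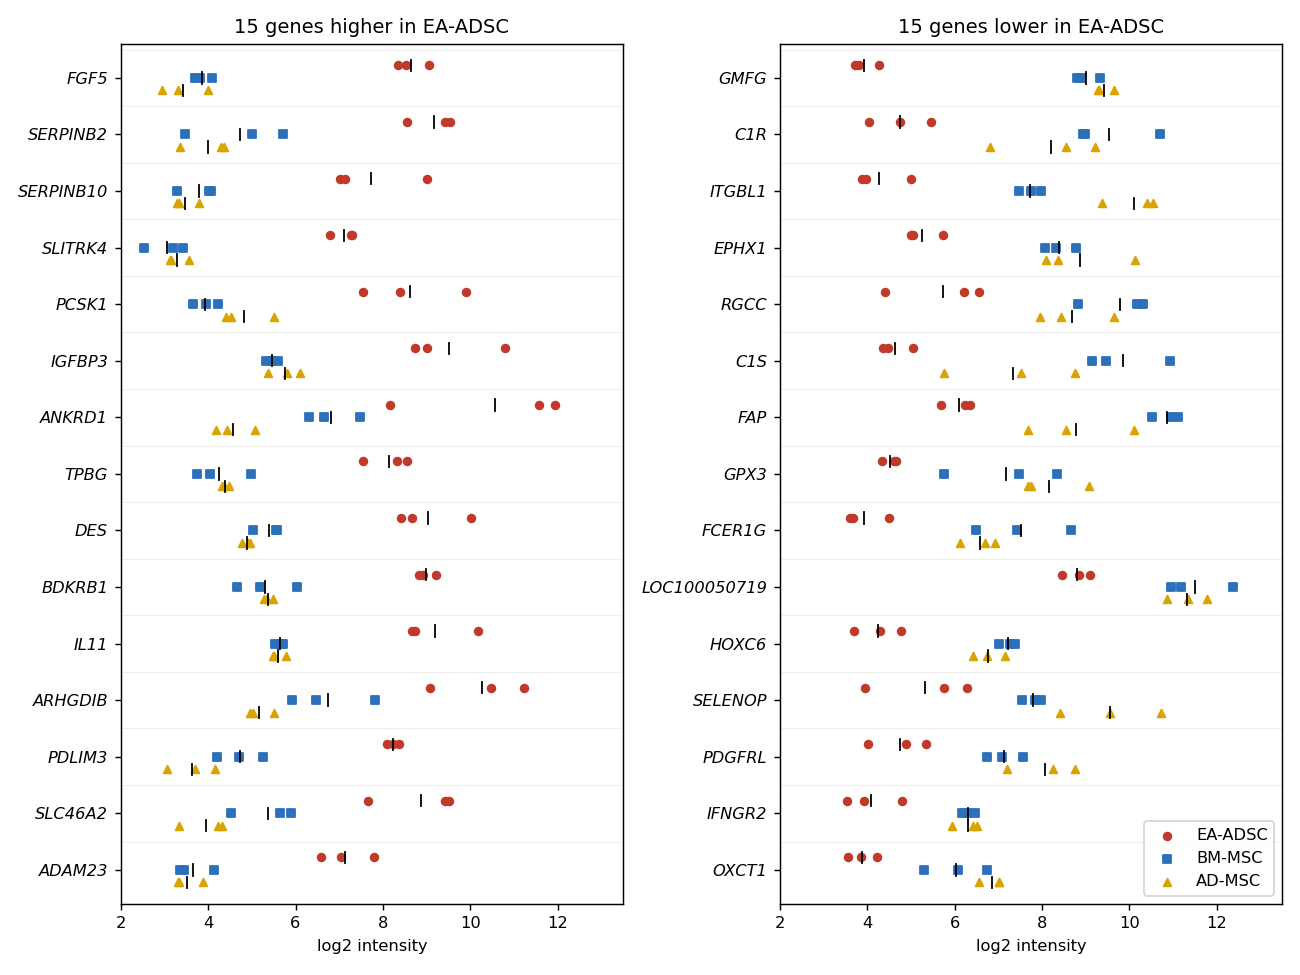
Log2 intensity of the 15 higher (left) and 15 lower (right) genes with the largest difference from the nearer control, with a point per array and a bar at each group mean. In every row the 3 EA-ADSC arrays lie on 1 side of all 6 control arrays, with FGF5 at 8.35 to 9.06 in EA-ADSC against a highest control array of 4.09, and GMFG at 3.73 to 4.28 in EA-ADSC against a lowest control array of 8.80.

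Among secreted signals, FGF5, a fibroblast growth factor best known for ending the growth phase of hair in mammals, stood at 8.35, 9.06 and 8.52 in EA-ADSC, against 3.69, 4.09 and 3.81 in BM-MSC and 3.99, 2.95 and 3.31 in AD-MSC. All 6 control arrays lay below the overall median and all 3 EA-ADSC arrays far above it, a log2 difference of 5.0 ± 0.25 (adjusted p = 0.000291). IL11, a cytokine that signals through the shared receptor subunit gp130, stood at 8.74, 10.18 and 8.67 in EA-ADSC, against 5.71, 5.52 and 5.68 in BM-MSC and 5.49, 5.51 and 5.78 in AD-MSC. Its 6 control arrays spanned 0.29 between them, and EA-ADSC was 12.0-fold higher (adjusted p = 0.00125). BDNF, a neurotrophin, stood at 9.68, 8.89 and 9.08 in EA-ADSC, against 6.17, 6.42 and 5.66 in BM-MSC and 5.26, 5.72 and 5.01 in AD-MSC, which is 11.4-fold higher (adjusted p = 0.000713).

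HBEGF, a ligand of the epidermal growth factor receptor, showed a step between the controls as well: 7.63, 8.26 and 8.17 in EA-ADSC, against 5.66, 6.01 and 6.47 in BM-MSC and 4.08, 4.16 and 3.66 in AD-MSC. EA-ADSC was 8.06-fold above the average of the controls (adjusted p = 0.00077), 3.92-fold above BM-MSC and 16.6-fold above AD-MSC. INHBA, which encodes the subunit of activin A, had the same order, at 10.55, 9.24 and 9.24 in EA-ADSC, 8.24, 7.98 and 8.49 in BM-MSC and 4.40, 5.04 and 4.66 in AD-MSC. Its 9.22-fold difference from the average (adjusted p = 0.002) was 2.71-fold against BM-MSC alone, which did not pass on its own (adjusted p = 0.129), and its lowest EA-ADSC array cleared the highest BM-MSC array by 0.75.

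Among growth factors with smaller rises, some calls were lost when 1 array was left out. FGF2, a basic fibroblast growth factor, was 2.12-fold higher at 8.11, 8.27 and 8.18 in EA-ADSC, against 7.35, 6.83 and 7.34 in BM-MSC and 7.0, 7.35 and 6.74 in AD-MSC (adjusted p = 0.0154), and its call was lost without EA-ADSC 2 or 3. FGF2 and FGF5 were the called members of the 22 measured fibroblast growth factors and receptors. VEGFC, a lymphatic growth factor, was 2.25-fold higher (adjusted p = 0.0458) and kept its call only without AD-MSC 2 or 3. TGFB1 was 2.44-fold higher (adjusted p = 0.0271) and kept its call only without EA-ADSC 2, AD-MSC 1 or AD-MSC 2. WNT5B, a Wnt ligand, was 2.40-fold higher (adjusted p = 0.0291) and kept it only without AD-MSC 1 or 2. DKK3, a secreted relative of Wnt antagonists, was 4.42-fold higher (adjusted p = 0.00645), 10.2-fold above AD-MSC and 1.92-fold above BM-MSC, where it did not pass alone. DKK3 kept its call without any 1 array and lost it with the controls pooled (adjusted p = 0.313). Tested against BM-MSC alone, FGF2, TGFB1 and WNT5B did not pass either.

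Counts over the ligand lists are set against the background over all genes, taken at 1 probe set per gene: 2.24% of genes were called higher, 1.78% lower, 1.72% higher with all EA-ADSC arrays above the controls, and 1.27% lower with all of them below. Of 24 angiogenic and trophic factors 4 were higher and 1 lower, and the members were BDNF, HBEGF and VEGFC. The lower gene, VEGFD, overlapped a control and is no member. Of 24 ligands, receptors and antagonists of the TGF-beta, activin and BMP families 4 were higher and 1 lower, and of 25 Wnt genes 2 were higher. Median log2 differences were 0.11, 0.12 and 0.02 for these lists and 0.18 for the fibroblast growth factor list, beside 0.003 over all genes. Of 20 cytokines and chemokines IL11 was the only one higher, and PTX3, the only one lower, overlapped a control.

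Several clade B serpins, inhibitors that act on proteases inside or close to the cell, stood far above both controls. SERPINB2, the plasminogen activator inhibitor PAI-2, stood at 8.54, 9.43 and 9.54 in EA-ADSC, against 5.72, 5.01 and 3.46 in BM-MSC and 4.30, 3.36 and 4.36 in AD-MSC. The BM-MSC arrays spread over 2.26, and EA-ADSC was still 27.9-fold higher than the average (adjusted p = 0.00241). SERPINB10 stood at 7.02, 9.01 and 7.14 in EA-ADSC, against 4.06, 3.29 and 4.03 in BM-MSC and 3.33, 3.29 and 3.80 in AD-MSC, 17.0-fold higher (adjusted p = 0.00294), with EA-ADSC 2 well above the other EA-ADSC arrays. SERPINB7 stood at 4.15, 5.42 and 5.92 in EA-ADSC, against 2.19, 2.31 and 2.75 in BM-MSC and 2.71, 2.38 and 2.26 in AD-MSC, 6.62-fold higher (adjusted p = 0.00671). In the human genome these 3 genes lie in 1 serpin cluster. A further relative, SERPINB8, also had all EA-ADSC arrays above the controls but did not pass (log2 difference 0.70, adjusted p = 0.15).

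The receptor of the same proteolytic system rose too. PLAUR, the urokinase receptor that holds plasminogen activation at the cell surface, stood at 9.38, 9.77 and 9.61 in EA-ADSC, against 7.87, 7.97 and 7.23 in BM-MSC and 6.88, 7.41 and 7.83 in AD-MSC, 4.17-fold higher (adjusted p = 0.00449). In all, 5 of the 17 measured genes of the plasminogen system and clade B serpins were higher, 4 of them members, and none was lower. The fifth was SERPINE2, a secreted inhibitor of thrombin and urokinase, with overlap, and the count was 4 or 5 without any 1 array. Their median log2 difference was 0.17, so most of the list sat near 0.

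Among other proteases and their inhibitors, PCSK1, which cuts prohormones in neuroendocrine cells, stood at 8.40, 9.90 and 7.55 in EA-ADSC, against 3.94, 4.22 and 3.65 in BM-MSC and 5.52, 4.52 and 4.41 in AD-MSC. The EA-ADSC arrays spread over 2.36 and all lay at least 2.03 above the nearest control array (18.9-fold higher than the average, adjusted p = 0.00407). SCG5, which encodes the chaperone of another prohormone convertase and was singled out after its values were seen, was 2.00-fold higher (adjusted p = 0.00719). ADAM12, a membrane metalloprotease, was 2.88-fold higher (adjusted p = 0.00321).

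The tissue inhibitors of metalloproteinases went opposite ways. TIMP1 stood at 13.03, 13.04 and 13.04 in EA-ADSC, against 12.49, 12.70 and 12.49 in BM-MSC and 11.82, 12.02 and 11.82 in AD-MSC, 1.76-fold higher with little spread (adjusted p = 0.0057). TIMP2 stood at 10.30, 10.16 and 9.54 in EA-ADSC, against 10.38, 10.54 and 10.67 in BM-MSC and 11.18, 11.11 and 11.25 in AD-MSC, 1.81-fold lower (adjusted p = 0.0382), a call kept only without EA-ADSC 1. MMP19 was 2.92-fold higher (adjusted p = 0.041) and kept its call only without BM-MSC 2 or 3. Over the 18 measured metalloproteinase and TIMP genes 3 were higher and 2 lower, with a median of -0.26. MMP3, the other lower gene, overlapped a control. Tested against BM-MSC alone, TIMP1, TIMP2 and MMP19 did not pass.

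IGFBP3, the main carrier of insulin-like growth factors in serum, stood at 9.0, 10.80 and 8.74 in EA-ADSC, against 5.33, 5.45 and 5.61 in BM-MSC and 6.11, 5.36 and 5.81 in AD-MSC. It was 15.0-fold higher (adjusted p = 0.0031), with EA-ADSC 2 the highest array. IGF2 went the other way, at 4.78, 4.40 and 4.52 in EA-ADSC, against 8.71, 7.96 and 9.24 in BM-MSC and 5.80, 4.89 and 5.36 in AD-MSC. Its 5.38-fold difference from the average (adjusted p = 0.00494) was 16.8-fold against BM-MSC and 1.72-fold against AD-MSC, where it did not pass alone (adjusted p = 0.223). Of 14 genes of this family 2 were higher and 1 lower, and IGFBP2, the other higher gene, overlapped a control.

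Receptors and adhesion molecules formed the next group. BDKRB1, the inducible bradykinin receptor, stood at 9.21, 8.91 and 8.83 in EA-ADSC, against 5.20, 4.66 and 6.04 in BM-MSC and 5.27, 5.35 and 5.48 in AD-MSC, 12.6-fold higher (adjusted p = 0.00077). The EA-ADSC arrays spanned 0.39, and the nearest control array lay 2.79 below them. Its constitutive relative BDKRB2 also had all EA-ADSC arrays above the controls and did not pass (log2 difference 0.76, adjusted p = 0.0893). Of 20 prostaglandin and kinin genes 2 were higher and 1 lower, the others, EDN1 and AGTR1, with overlap.

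TPBG, a membrane glycoprotein also known as 5T4, stood at 8.54, 7.53 and 8.32 in EA-ADSC, against 4.04, 4.98 and 3.75 in BM-MSC and 4.32, 4.37 and 4.48 in AD-MSC (14.0-fold higher, adjusted p = 0.000994). SLITRK4, a neuronal membrane protein with leucine-rich repeats, stood at 7.28, 7.29 and 6.78 in EA-ADSC, against 3.20, 3.42 and 2.53 in BM-MSC and 3.14, 3.56 and 3.16 in AD-MSC (15.4-fold higher, adjusted p = 0.000314). Both genes lay near or below the overall median on all 6 control arrays, and the controls were not called different from each other (adjusted p of AD-MSC against BM-MSC = 0.872 for TPBG and 0.652 for SLITRK4). ADAM23, a metalloprotease-like adhesion protein of neurons, was 11.8-fold higher (adjusted p = 0.000994), and SLC46A2, a solute carrier, 18.4-fold higher (adjusted p = 0.00449). GPM6B, a neuronal proteolipid, was lower instead, at 4.07, 4.09 and 3.90 in EA-ADSC, against 8.34, 8.07 and 8.24 in BM-MSC and 5.66, 5.16 and 6.70 in AD-MSC (8.04-fold, adjusted p = 0.002). Of 29 axon guidance and neuronal membrane genes 2 were higher and 3 lower (median -0.05), the others being SLIT3 (2.02-fold lower, adjusted p = 0.0405), a member whose call held only without AD-MSC 2, and SLIT2, with overlap.

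ALCAM, an adhesion molecule counted among stromal cell markers, stood at 8.98, 9.49 and 9.77 in EA-ADSC, against 6.21, 6.81 and 6.31 in BM-MSC and 7.31, 7.31 and 6.54 in AD-MSC, 6.35-fold higher (adjusted p = 0.0017). ITGB1, the beta-1 integrin chain, and ITGA5, its partner in the fibronectin receptor, were 2.04-fold and 2.71-fold higher (adjusted p = 0.00827 and 0.0168). Against BM-MSC alone they were 1.42-fold and 1.69-fold higher and did not pass (adjusted p = 0.236 and 0.304), and both lost their call with the controls pooled (adjusted p = 0.272 and 0.266). ITGAV was 1.84-fold higher (adjusted p = 0.0472) and kept its call only without AD-MSC 1, which with ITGBL1, lower, made 3 higher and 1 lower of 17 integrin genes. Of the 17 stromal surface markers 5 were higher and none lower, THY1 and ENG with overlap. The count was 3 or 4 without any 1 array. Their median was 0.50 against the average of the controls, 0.17 against BM-MSC and 0.08 against AD-MSC. CDH2, N-cadherin, stood at 6.11, 7.52 and 7.46 in EA-ADSC, against 5.01, 5.01 and 4.73 in BM-MSC and 3.66, 3.38 and 3.27 in AD-MSC, 7.21-fold higher (adjusted p = 0.0029), and PCDH7, a protocadherin, was 3.16-fold higher (adjusted p = 0.00722). The lower genes of the junction list, JAM2 and GJA1, overlapped a control, which leaves it at 2 higher and 2 lower of 22.

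Some cytoskeletal genes best known from muscle were higher. DES, the intermediate filament of muscle, stood at 10.02, 8.41 and 8.68 in EA-ADSC, against 5.56, 5.57 and 5.02 in BM-MSC and 4.92, 4.77 and 4.96 in AD-MSC (14.9-fold higher, adjusted p = 0.00106). PDLIM3, a LIM protein of actin bundles and Z discs, stood at 8.10, 8.37 and 8.22 in EA-ADSC, against 4.72, 4.20 and 5.26 in BM-MSC and 4.15, 3.05 and 3.71 in AD-MSC, with the EA-ADSC arrays spanning 0.27 (16.6-fold higher, adjusted p = 0.000713). ANKRD1, a mechanically induced ankyrin repeat protein, stood at 11.57, 8.17 and 11.93 in EA-ADSC, against 6.65, 7.46 and 6.32 in BM-MSC and 4.18, 5.07 and 4.43 in AD-MSC. EA-ADSC 2 lay 3.40 below the next EA-ADSC array and 0.70 above the nearest control array. ANKRD1 was 29.3-fold higher (adjusted p = 0.015) and lost its call without EA-ADSC 1 or EA-ADSC 3. It was 13.4-fold higher against BM-MSC alone and did not pass (adjusted p = 0.113). With the controls pooled its call was lost (adjusted p = 0.0903).

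ACTG2, the enteric smooth muscle actin, shows how a gene can be a member through 1 control. It stood at 12.34, 12.65 and 12.53 in EA-ADSC, against 11.77, 11.57 and 11.93 in BM-MSC and 5.70, 7.53 and 5.76 in AD-MSC. The 11-fold difference from the average (adjusted p = 0.00319) held 72.2-fold against AD-MSC and 1.68-fold against BM-MSC (adjusted p = 0.596 against BM-MSC alone). Of 17 smooth muscle and pericyte genes 6 were higher and none lower, with a median of 0.26. TAGLN, MYL9, TPM1 and CNN1 overlapped BM-MSC. That count fell to 3 without EA-ADSC 1, 4 without EA-ADSC 2 and 2 without EA-ADSC 3. A list of LIM-domain and stress-fibre genes, chosen after the values had been seen, held 7 higher members among 24, including PDLIM1 (4.27-fold, adjusted p = 0.00628), and 2 lower ones, LIMA1 (2.23-fold, adjusted p = 0.00816) and FHL1 (2.08-fold, adjusted p = 0.0128, lost without EA-ADSC 2).

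The actin regulators ARHGDIB and GMFG went in opposite directions. ARHGDIB, which is abundant in blood cells, stood at 10.47, 9.09 and 11.23 in EA-ADSC, against 6.48, 5.92 and 7.83 in BM-MSC and 5.03, 5.50 and 4.96 in AD-MSC (19.9-fold higher, adjusted p = 0.00524). GMFG, which prunes branched actin and is likewise abundant there, stood at 3.80, 3.73 and 4.28 in EA-ADSC, against 8.80, 8.90 and 9.33 in BM-MSC and 9.29, 9.31 and 9.64 in AD-MSC. The 6 control arrays of GMFG spanned 0.84, and its 38.7-fold lower level had the smallest adjusted p of all probe sets (2.18e-05). They were the only called genes among 12 pan-leukocyte markers (median -0.34).

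Matrix glycoproteins held the most members of the 37 lists: of 21 measured genes 9 were higher, 7 of them members, and 1 was lower, with a median log2 difference of 0.74. The count of higher genes was 6 to 9 without any 1 array. FBLN2, an elastic fibre protein, was separated from both controls alike, at 8.41, 8.57 and 8.42 in EA-ADSC, against 6.42, 6.32 and 6.58 in BM-MSC and 6.80, 6.63 and 6.80 in AD-MSC (3.67-fold higher, adjusted p = 0.000314). Its relative FBLN5, taken up here after its values were seen, was lower, at 4.18, 4.08 and 3.84 in EA-ADSC, against 6.72, 6.98 and 7.27 in BM-MSC and 6.65, 5.53 and 6.23 in AD-MSC (5.77-fold, adjusted p = 0.00192).

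The other large rises of this list lay mainly against AD-MSC. TGFBI, an adhesion protein induced by TGF-beta, stood at 10.70, 11.01 and 11.27 in EA-ADSC, against 10.58, 10.18 and 10.66 in BM-MSC and 4.92, 4.72 and 4.19 in AD-MSC. Its lowest EA-ADSC array cleared the highest BM-MSC array by 0.037, and its 10.9-fold difference (adjusted p = 0.000314) was 1.43-fold against BM-MSC (adjusted p = 0.45). TNC, tenascin C, stood at 9.14, 9.81 and 9.48 in EA-ADSC, against 8.48, 7.97 and 8.09 in BM-MSC and 2.94, 4.04 and 4.02 in AD-MSC (11.7-fold higher, adjusted p = 0.000979). VCAN, a large proteoglycan, stood at 11.44, 11.18 and 11.44 in EA-ADSC, against 10.94, 10.98 and 11.13 in BM-MSC and 8.10, 7.43 and 7.82 in AD-MSC (3.87-fold higher, adjusted p = 0.000994). Taken against BM-MSC alone TNC was 2.46-fold and VCAN 1.26-fold higher, and neither passed (adjusted p = 0.122 and 0.552). FN1, fibronectin, was 6.01-fold higher (adjusted p = 0.00121), 16.8-fold against AD-MSC and 2.15-fold against BM-MSC, where it did not pass alone.

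Of 18 collagens 5 were higher and none lower, and COL15A1 alone had all EA-ADSC arrays above the controls (1.62-fold, adjusted p = 0.0465, kept only without EA-ADSC 2). COL1A1 averaged 10.46 ± 0.12 in EA-ADSC, against 10.58 ± 0.11 in BM-MSC and 7.97 ± 0.54 in AD-MSC (SD, n = 3 each), so that its call (adjusted p = 0.0248) came with a level no higher than in BM-MSC. The count of 5 dropped to 1 without EA-ADSC 1, EA-ADSC 3 or any BM-MSC array and to 2 without EA-ADSC 2.

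Enzymes that modify and cross-link collagen were gathered into a list after the values had been seen, and carry no test as a group. Of 21 measured, 13 were higher and none lower, 9 with all EA-ADSC arrays above the controls. LOXL2, a lysyl oxidase, stood at 8.71, 8.35 and 8.60 in EA-ADSC, against 7.87, 7.85 and 7.62 in BM-MSC and 5.71, 5.10 and 4.94 in AD-MSC (4.11-fold higher, adjusted p = 0.00131). P4HA2, a prolyl 4-hydroxylase subunit, was 2.46-fold higher (adjusted p = 0.00449), P3H2, a prolyl 3-hydroxylase, 2.84-fold (adjusted p = 0.00407) and BMP1, which cuts procollagen, 2.54-fold (adjusted p = 0.00407). BMP1 did not pass against BM-MSC alone. The list's mean level was 8.79 to 8.97 in EA-ADSC, against 8.63 to 8.66 in BM-MSC and 6.85 to 7.07 in AD-MSC, and its median log2 difference was 0.49 against BM-MSC and 1.81 against AD-MSC.

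Hypoxia and glycolysis genes were called most often of the 37 lists, 12 higher and 1 lower of 25, although 5 of the 12 were members and the median difference was 0.06 against BM-MSC and 1.14 against AD-MSC. CA9, a carbonic anhydrase induced by low oxygen, stood at 10.47, 10.06 and 9.35 in EA-ADSC, against 8.09, 7.91 and 8.17 in BM-MSC and 6.13, 6.13 and 5.55 in AD-MSC (7.81-fold higher, adjusted p = 0.000994). PGAM1 and PFKP, glycolytic enzymes, were 3.14-fold and 2.32-fold higher (adjusted p = 0.0123 and 0.0122). PGAM1 lost its call without EA-ADSC 2, and PFKP without EA-ADSC 2 or 3. When BM-MSC was the only control tested, 1 of the 25 genes passed as higher and 0 as lower. PGK1, another enzyme of glycolysis, lay just inside the range criterion, its lowest EA-ADSC array 0.005 above the highest BM-MSC array, and was 1.73-fold above the average (adjusted p = 0.00487) and 1.11-fold above BM-MSC. ADM, a vasodilator peptide that low oxygen usually induces, was the lower gene, at 7.27, 5.36 and 5.46 in EA-ADSC, against 7.58, 7.69 and 8.48 in BM-MSC and 9.68, 8.81 and 9.30 in AD-MSC (5.89-fold, adjusted p = 0.0221, lost without EA-ADSC 2, EA-ADSC 3, BM-MSC 2 or AD-MSC 3). The 12 higher calls became 4 without EA-ADSC 2, 6 without EA-ADSC 3, BM-MSC 1 or BM-MSC 2, and 7 without BM-MSC 3 or AD-MSC 3.

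**Figure D3:**
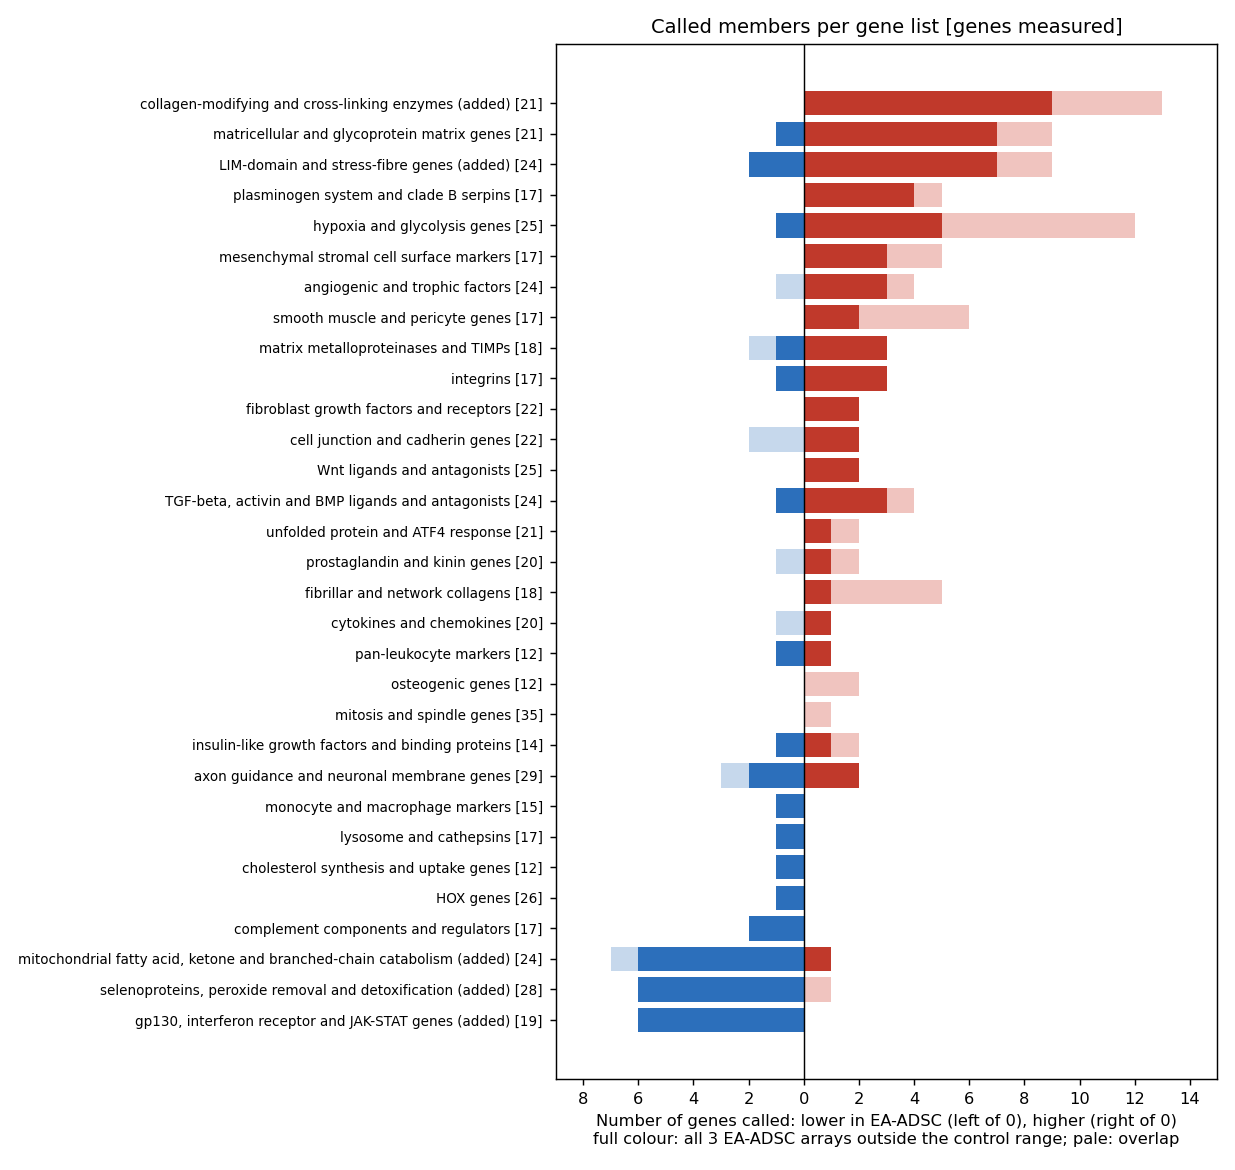
Number of genes per list called lower (left of 0) and higher (right of 0) in EA-ADSC, with the genes measured in brackets, full colour for members and pale colour for called genes whose arrays overlap a control. The lists marked added were chosen after values were seen; the matricellular list has 7 higher members of 21 genes, and the hypoxia and glycolysis list has 12 higher calls of which 5 are members.

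Among the lower genes, both proteases that start the classical complement pathway were included. C1R stood at 4.74, 4.03 and 5.46 in EA-ADSC, against 8.97, 8.93 and 10.71 in BM-MSC and 9.22, 6.80 and 8.55 in AD-MSC, 17.4-fold lower (adjusted p = 0.0123). C1S stood at 4.36, 4.48 and 5.05 in EA-ADSC, against 9.47, 9.15 and 10.93 in BM-MSC and 8.76, 5.76 and 7.51 in AD-MSC, 15.6-fold lower (adjusted p = 0.0159), and AD-MSC 2 was its lowest control array, 0.71 above the nearest EA-ADSC array. C1R lost its call without EA-ADSC 2, and C1S without any 1 of the EA-ADSC arrays. Against AD-MSC alone C1S was 6.55-fold lower and did not pass (adjusted p = 0.0651). Of 17 complement genes none was higher, these 2 were lower, and the median was -0.20.

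ITGBL1, a secreted integrin-like protein, stood at 3.87, 4.99 and 3.98 in EA-ADSC, against 7.97, 7.74 and 7.47 in BM-MSC and 10.53, 9.36 and 10.40 in AD-MSC (24.8-fold lower, adjusted p = 0.000743), the lowest in EA-ADSC and the highest in AD-MSC. FAP, the fibroblast activation protease, stood at 5.69, 6.35 and 6.24 in EA-ADSC, against 10.52, 10.95 and 11.12 in BM-MSC and 10.09, 7.69 and 8.54 in AD-MSC (13.2-fold lower, adjusted p = 0.0057). PDGFRL, a secreted protein resembling the platelet-derived growth factor receptor, was 7.23-fold lower (adjusted p = 0.00939), and TGFBR2, the type II receptor of TGF-beta, 2.90-fold lower (adjusted p = 0.00475). Against BM-MSC alone PDGFRL was 5.2-fold lower and did not pass (adjusted p = 0.0613), and TGFBR2 did not pass either. CTSK, a collagen-degrading cathepsin, was 3.83-fold lower (adjusted p = 0.0292) and kept its call only without EA-ADSC 3, BM-MSC 3 or AD-MSC 2. SNAI2, a transcription factor of mesenchymal cells named after its values were seen, stood at 5.83, 5.21 and 6.16 in EA-ADSC, against 7.88, 8.47 and 8.52 in BM-MSC and 8.03, 7.25 and 7.32 in AD-MSC (4.54-fold lower, adjusted p = 0.00555).

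EPHX1, the microsomal epoxide hydrolase, stood at 4.99, 5.73 and 5.05 in EA-ADSC, against 8.79, 8.31 and 8.07 in BM-MSC and 10.12, 8.37 and 8.10 in AD-MSC (10.3-fold lower, adjusted p = 0.00671). GPX3, a secreted glutathione peroxidase that contains selenium, stood at 4.33, 4.65 and 4.61 in EA-ADSC, against 8.33, 7.46 and 5.75 in BM-MSC and 9.08, 7.74 and 7.68 in AD-MSC (8.84-fold lower, adjusted p = 0.0212). SELENOP, the selenium transport protein, stood at 6.29, 3.96 and 5.75 in EA-ADSC, against 7.53, 7.98 and 7.84 in BM-MSC and 10.73, 8.40 and 9.55 in AD-MSC (10.1-fold lower, adjusted p = 0.0246). The EA-ADSC arrays of GPX3 spanned 0.32 while its control arrays spanned 3.33. GPX3 lost its call without any 1 EA-ADSC array or BM-MSC 2, and SELENOP without EA-ADSC 2, EA-ADSC 3, any 1 BM-MSC array or AD-MSC 3. Against BM-MSC alone GPX3 was 6.28-fold and SELENOP 5.5-fold lower, and neither passed (adjusted p = 0.112 and 0.176). In a list of selenoproteins and enzymes of peroxide removal and detoxification, chosen after the values had been seen, 6 of 28 genes were lower members, SELENBP1 and CAT among them (3.79-fold and 3.44-fold, adjusted p = 0.000879 and 0.0238). CAT lost its call without any 1 EA-ADSC or BM-MSC array, and PRDX2 was higher with overlap.

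Some receptor chains of interferon and of the interleukin 6 family were lower. IFNGR2, a chain of the interferon gamma receptor, stood at 3.92, 3.53 and 4.79 in EA-ADSC, against 6.16, 6.29 and 6.48 in BM-MSC and 6.43, 5.94 and 6.51 in AD-MSC (4.66-fold lower, adjusted p = 0.00503). OSMR, the oncostatin M receptor, stood at 4.90, 4.77 and 4.35 in EA-ADSC, against 6.72, 6.62 and 6.84 in BM-MSC and 6.23, 6.64 and 6.28 in AD-MSC (3.70-fold lower, adjusted p = 0.000994), and IL6ST, which encodes gp130, stood at 7.92, 8.12 and 8.37 in EA-ADSC, against 8.84, 8.98 and 8.96 in BM-MSC and 9.55, 9.81 and 9.78 in AD-MSC (2.27-fold lower, adjusted p = 0.00308). As in every lower member, the highest EA-ADSC array of each lay below the lowest control array. OSMR and IL6ST were taken up after their values were seen, with a list of 19 genes of these receptors and of JAK-STAT signalling in which 6 were lower members (median -0.15). The others were STAT3, JAK1 and IFNAR2, lower by less than 2-fold. Each lost its call without EA-ADSC 2 or EA-ADSC 3, JAK1 also without EA-ADSC 1, BM-MSC 1 or BM-MSC 2, and IFNAR2 also without BM-MSC 2 or AD-MSC 3. Related chains did not pass, with log2 differences of 0.34 for IFNGR1, -0.94 for IFNAR1, -0.17 for LIFR and 0.08 for CNTFR.

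HOXC6, a homeobox gene of body-axis position, stood at 4.76, 4.29 and 3.70 in EA-ADSC, against 7.27, 7.39 and 7.01 in BM-MSC and 7.16, 6.42 and 6.74 in AD-MSC (6.70-fold lower, adjusted p = 0.00142), and was the only called gene of 26 HOX genes (median -0.28). With HOXC6, 5 of the 26 had all EA-ADSC arrays below the controls, and 1 had them all above. Over all 16661 genes 709 lay below and 761 above. An unadjusted p under 0.05 was held by 9 of the 26. RGCC, a cell cycle regulator, was 11.3-fold lower (adjusted p = 0.0181) and lost its call without EA-ADSC 2, EA-ADSC 3, BM-MSC 1 or BM-MSC 2. OXCT1, the enzyme that lets cells use ketone bodies, stood at 3.86, 3.56 and 4.22 in EA-ADSC, against 6.08, 6.74 and 5.31 in BM-MSC and 7.01, 7.02 and 6.56 in AD-MSC (5.96-fold lower, adjusted p = 0.00449). Of 24 genes of mitochondrial fatty acid, ketone and branched-chain amino acid catabolism, listed after the values had been seen, 6 were lower members and 1, ETFB, was a higher one whose call held only without AD-MSC 1 or 2. FABP3, a fatty acid carrier, was 6.00-fold lower (adjusted p = 0.00654). INSIG1, a brake on cholesterol synthesis, was 4.10-fold lower (adjusted p = 0.0198) and lost its call without any 1 EA-ADSC array or BM-MSC 2. It did not pass against BM-MSC alone. LOC100050719, which has no further name in the annotation, was 6.13-fold lower (adjusted p = 0.00671).

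Some lists shifted without members. All 35 mitosis and spindle genes had a difference above 0, with a median of 1.23, 2.05 against BM-MSC and 0.38 against AD-MSC, and 1 passed, CDK1, with overlap (3.68-fold, adjusted p = 0.0263, kept only without BM-MSC 2, AD-MSC 1 or AD-MSC 2). Without AD-MSC 2, whose mean over this list was the highest of all 9 arrays, 19 passed. Of the same 35, 6 passed with array weights and 3 when limma was run on 1 probe set per gene, which adjusts over fewer tests. Of 31 DNA replication genes none passed limma as fitted here and 21 had an unadjusted p under 0.05 (median 0.82). That count of 0 depended on the setting: 8 passed with array weights or with 1 probe set per gene, 5 with dim probe sets left out, 2 with limma-trend, 1 with quantile normalization and 11 without AD-MSC 2. RRM2 had a log2 difference of 1.96 (adjusted p = 0.0544) and MCM5 of 1.16 (adjusted p = 0.0545), and both passed in each of these settings except MCM5 with quantile normalization. None of the 31 passed with median centring, with the controls pooled, or without any 1 array other than AD-MSC 2.

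Interferon response genes had a median of -0.76, which was -1.63 against BM-MSC and -0.05 against AD-MSC. None of 18 passed limma, 4 having an unadjusted p under 0.05. The difference was above 0 in 1 of the 18, and 5 had all EA-ADSC arrays below the controls, beside 709 of all 16661 genes. Their mean level in BM-MSC 3 stood above every other array. Without that array the median was -0.32 and 3 genes were called lower, IFI44, OAS1 and USP18. USP18 averaged 3.56 ± 0.23 in EA-ADSC, against 5.59 ± 2.06 in BM-MSC and 7.54 ± 0.94 in AD-MSC (adjusted p = 0.0961). Cholesterol synthesis genes had a median of -0.04 against BM-MSC and -1.39 against AD-MSC, with INSIG1 the only call of 12. Of 12 osteogenic genes SPARC and DLX5 were higher (2.91-fold and 4.21-fold, adjusted p = 0.00955 and 0.0194) with overlap, the EA-ADSC arrays of SPARC lying below all BM-MSC arrays, and DLX5 lost its call without EA-ADSC 2, EA-ADSC 3 or BM-MSC 1. Of 21 genes of the unfolded protein and ATF4 response 2 were higher, PDIA4 with overlap and HSP90B1 as a member whose call held only without AD-MSC 2 (1.59-fold, adjusted p = 0.0317). CTSK and FCER1G were the only calls among 17 lysosome genes and 15 monocyte and macrophage markers.

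**Figure D4:**
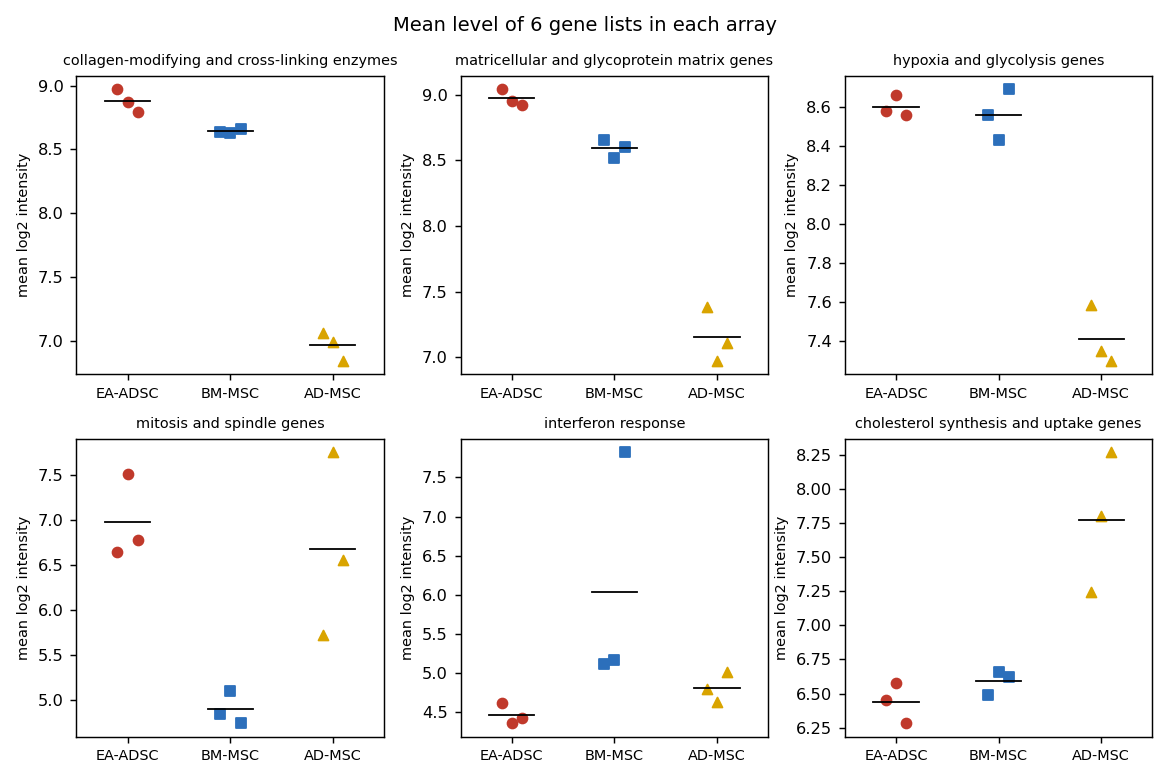
Mean log2 intensity over the genes of 6 lists, a point per array and a line at each group mean. In the collagen-modifying and matricellular lists EA-ADSC lies a little above BM-MSC and far above AD-MSC, and in the hypoxia list it lies far above AD-MSC (8.56 to 8.66 against 7.30 to 7.58) with BM-MSC overlapping it (8.44 to 8.69); BM-MSC 3 stands apart in the interferon list and AD-MSC 2 is the highest array in the mitosis list.

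In limma as fitted here no gene passed among 11 endothelial, 5 erythroid and platelet, 14 lymphocyte, 11 adipogenic, 12 chondrogenic, 18 homing, 11 antigen presentation, 19 immediate early and heat shock, and 14 pluripotency genes; 22 of these 113 genes had an unadjusted p under 0.05. With 1 probe set per gene 5 of the 113 passed, CD44 higher and FABP4, PPARG, VCAM1 and FOSL2 lower, and leaving out 1 array gave 0 to 4 calls. FABP4, a fat cell protein, had all EA-ADSC arrays below the controls, at 2.93, 2.85 and 3.16 in EA-ADSC, against 6.28, 5.03 and 5.29 in BM-MSC and 6.25, 11.28 and 8.14 in AD-MSC, and did not pass (adjusted p = 0.0581). PPARG, the transcription factor of fat cells, behaved alike (log2 difference -1.95, adjusted p = 0.0581). Both passed with 1 probe set per gene, a gene's probe sets averaged, dim probe sets left out or array weights, and without AD-MSC 1. FABP4 also passed without AD-MSC 2 and PPARG without BM-MSC 2. VCAM1, a marrow stromal adhesion molecule, averaged 3.97 ± 0.47 in EA-ADSC, against 8.84 ± 1.69 in BM-MSC and 5.28 ± 1.29 in AD-MSC (SD, n = 3 each) and did not pass (adjusted p = 0.0772), though it passed with 1 probe set per gene, a gene's probe sets averaged or dim probe sets left out.

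The labelled cell type was read against defining markers. Of 9 stromal markers 6 had an EA-ADSC mean above the upper quartile of all values, and their mean level per array was 7.92 to 7.95 in EA-ADSC, 7.88 to 8.45 in BM-MSC and 7.01 to 7.26 in AD-MSC. The others were VCAM1, NT5E and PDGFRB. NT5E stood at 6.27, 6.51 and 4.99 in EA-ADSC, against 7.60, 7.72 and 8.41 in BM-MSC and 6.08, 6.57 and 5.70 in AD-MSC, and did not pass (adjusted p = 0.177). PDGFRB averaged 5.06 ± 0.09 in EA-ADSC, 5.06 ± 0.13 in BM-MSC and 4.98 ± 0.06 in AD-MSC (SD, n = 3 each). Leukocyte markers (PTPRC, CD53, CORO1A, ITGB2, LCP1) averaged 4.04 to 4.18 per array in EA-ADSC, 4.50 to 5.34 in BM-MSC and 3.95 to 4.39 in AD-MSC. The 6 measured monocyte markers averaged 4.42 to 4.78 in EA-ADSC, 5.59 to 6.77 in BM-MSC and 5.07 to 5.53 in AD-MSC, and FCER1G, the Fc receptor gamma chain, was lower at 4.49, 3.68 and 3.61 in EA-ADSC, against 8.67, 6.49 and 7.42 in BM-MSC and 6.70, 6.11 and 6.91 in AD-MSC (8.72-fold, adjusted p = 0.0106, lost without EA-ADSC 2 or 3). CD68 alone of the 6 had an EA-ADSC mean above the upper quartile. Its arrays lay at 6.86 to 8.26 in EA-ADSC, 8.22 to 9.02 in BM-MSC and 8.72 to 11.34 in AD-MSC, and it did not pass (adjusted p = 0.169). The 4 T and NK cell markers averaged 4.17 to 4.38 in EA-ADSC, 3.97 to 5.38 in BM-MSC and 3.76 to 3.95 in AD-MSC. Of these CD3E, CD3D and CD2 had EA-ADSC means below the overall median, whereas NKG7, a granule protein of cytotoxic lymphocytes, stood at 6.77, 7.60 and 7.15 in EA-ADSC, against 5.68, 5.87 and 7.75 in BM-MSC and 5.46, 4.92 and 4.92 in AD-MSC. NKG7 did not pass (adjusted p = 0.155), passed without BM-MSC 3, its highest array, and passed against AD-MSC alone (adjusted p = 0.0468). Endothelial markers averaged 3.88 to 3.95 in EA-ADSC, 3.79 to 3.87 in BM-MSC and 3.74 to 3.81 in AD-MSC. Adipocyte markers averaged 4.34 to 4.53 in EA-ADSC, 4.89 to 5.09 in BM-MSC and 5.36 to 6.46 in AD-MSC. PLIN1 alone of these had an EA-ADSC mean above the upper quartile, 6.41 beside 6.32 in BM-MSC and 6.36 in AD-MSC. The share of other cell types in the lower genes, GMFG and the complement genes included, was not tested.

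The edge of the range criterion was narrow for some genes. GUCY1B1, a guanylate cyclase subunit, and PGK1 were the higher members closest to a control array, with gaps of 0.001 and 0.005, while ARMCX2 and ACTN1 missed by 0.011 and 0.019. On the lower side EEA1, an endosome tether, and DISP1 were inside by 0.001 and 0.005, while CMBL and CYBRD1 missed by 0.001 and 0.004. GUCY1B1 kept its call only without AD-MSC 2, and EEA1 lost it without EA-ADSC 2, BM-MSC 1 or BM-MSC 2. The gap was at least 1 log2 unit for 55 of the 347 higher and 28 of the 281 lower members, and under 0.1 for 39 and 26. EA-ADSC 1 was the array nearest the controls in 157 higher members, EA-ADSC 2 in 90 and EA-ADSC 3 in 100, and for the lower members these numbers were 82, 83 and 116. The nearest control array was a BM-MSC array for 262 of the higher and 195 of the lower members.

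How the members held up separated a small set from the rest. Of the 628, 209 kept their call in each of the 9 fits that left out 1 array, 132 higher and 77 lower. Pooling the 6 control arrays as 1 group, which counts the gap between the controls as spread, kept 120 members. Under all 15 settings run on all probe sets 88 remained, 54 higher and 34 lower, naming 74 genes. FGF5, IL11, BDNF, SERPINB2, SERPINB10, SERPINB7, PLAUR, PCSK1, IGFBP3, BDKRB1, TPBG, SLITRK4, ALCAM, DES, PDLIM3, ARHGDIB and FBLN2 were among the higher ones. GMFG, ITGBL1, EPHX1, HOXC6, PDGFRL, IFNGR2, OSMR, OXCT1, FBLN5 and SNAI2 were among the lower ones. TGFBI, TNC, VCAN, ACTG2, INHBA, HBEGF, CA9, IGF2, GPM6B, C1R, C1S and FAP lost their calls when the controls were pooled. So did ANKRD1, RGCC, GPX3, SELENOP, CDH2, DKK3, ADAM12, TIMP1, TGFBR2, BMP1, PFKP and PGAM1, among other genes described above.

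**Figure D5:**
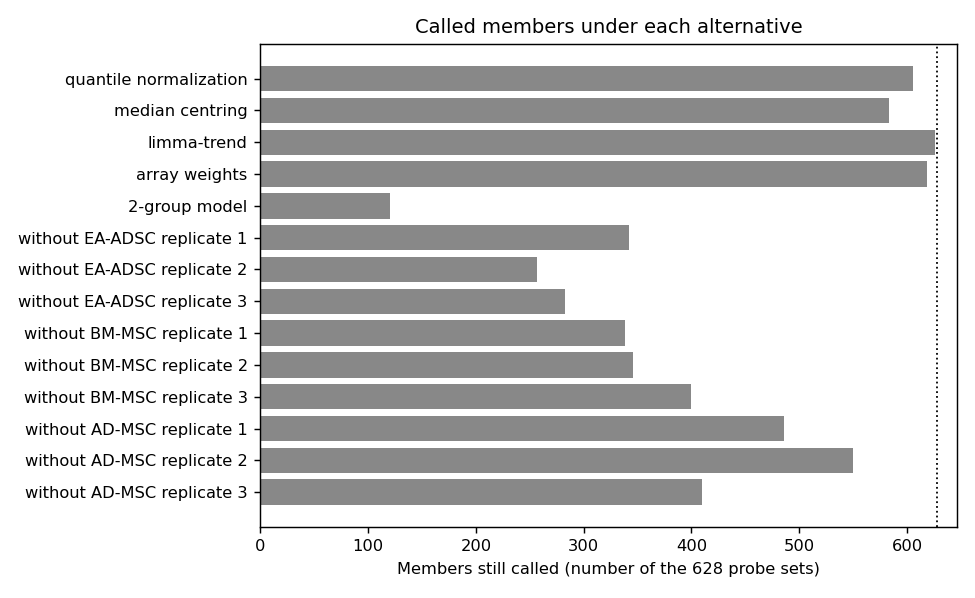
Bars give how many of the 628 members (dotted line) kept an adjusted p under 0.05 under each alternative drawn. Among those not drawn is the replicate block, which kept 397. Scaling and variance settings kept 583 to 626, single left-out arrays kept 257 to 550, and pooling the controls as 1 group kept 120.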

How the data were processed

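RNA of 9 cultures was measured on Affymetrix arrays, 3 in each of the 3 groups, grouped by the labels' titles. The values are log2 intensities of 30559 probe sets in a table deposited by the authors. The tools named, per the submitters' processing notes, were Affymetrix Expression Console, Partek 6.16.0419 and Transcriptome Analysis Console 3. Not given in the sources used here were the genome build and how probes were summarized and normalized. Of the probe sets, 16789 had 1 gene in the platform annotation, 343 had several and 13427 had none, and only those with 1 gene were named (16661 genes).

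No further normalization was applied. In R 4.3.3, limma 3.58.1 was fitted to all 9 arrays with a mean per group (residual degrees of freedom 6), with the contrast EA-ADSC minus the average of BM-MSC and AD-MSC as the test and Benjamini-Hochberg adjustment over all probe sets at 0.05. The fit was tested on simulated data. The median standard error was 0.167, and 3 arrays per group limit the precision. Gene lists use 1 probe set per gene, the one with the highest mean over all arrays.

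The genes named by rule are the 15 in each direction with the largest difference from the nearer control, up to 4 called genes per list by smallest adjusted p (or up to 2 by smallest p, as values only), the 2 nearest the range criterion inside and outside it in each direction, and defining markers. The members and the 37 gene lists were chosen with earlier results of these data known, and 5 further lists, and all other genes named beside a count, after the values were seen. Alternatives were quantile normalization, median centring, a filter on dim probe sets, limma-trend, array weights, a replicate block, other rules for several probe sets of a gene, the controls pooled, a 2-fold criterion, calls against each control, and each array left out in turn.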

Additional observations from a re-analysis of the deposited data

How the results depend on the processing

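With 453 higher, 390 lower, 347 higher member and 281 lower member probe sets as reported, quantile normalization, median centring, limma-trend, array weights, the filter on dim probe sets and both rules for several probe sets of a gene kept these counts within 1.5 times. Pooling the controls, which counts the gap between them as spread, left 74 higher and 46 lower, all of them members. The 2-fold criterion left 274 higher and 208 lower, and calls against each control separately left 72 and 52. Leaving out 1 array gave 221 to 558 higher, 161 to 460 lower, 195 to 449 higher members and 126 to 329 lower members, while the probe sets outside the control range numbered 1168 to 1876 above and 1155 to 1945 below, since fewer arrays are easier to separate. Replicate numbers did not pair the samples: deviations from the group means correlated at -0.024 to 0.123 for the same number and -0.116 to 0.04 for different numbers. With the replicate block there were 338 higher, 264 lower, 243 higher members and 180 lower members, and 397 of the 628 members kept their call. Alternatives for single pairs of groups were chosen after seeing the data. EA-ADSC and BM-MSC differed in 249 probe sets as reported, 479 without dim probe sets, 744 with array weights, 488 with 1 probe set per gene, 499 with a gene's probe sets averaged and 86 to 384 without 1 array. EA-ADSC and AD-MSC differed in 2116 (1176 to 2037 without 1 array), and AD-MSC and BM-MSC in 1857 (849 to 2012). Of 78 called genes named by rule, 49 kept their call in all 9 fits without 1 array, and none of the 78 changed sign. TUBB1, not called, turned to -0.03 with the mean of its probe sets, and HBB, not called, to -0.10 without EA-ADSC replicate 1, in a range up to 0.40 without 1 array. Causes not stated here were not tested, and how far dim probe sets lay over background was not judged.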

Other observations

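Members with a large difference that no list held are given here as values, and all were chosen after their values were seen. CFAP299, a cilium and flagellum gene that lies next to FGF5 in the human genome, stood at 8.84, 9.66 and 9.20 in EA-ADSC, against 6.42, 7.16 and 6.75 in BM-MSC and 3.52, 3.54 and 2.94 in AD-MSC. EA-ADSC was 18.1-fold above the average of the controls (adjusted p = 0.000314 in limma), and unlike FGF5 the gene stepped between the controls, with BM-MSC above AD-MSC on every array. TNN, tenascin N, a matrix relative of TNC, stood at 8.27, 6.87 and 7.60 in EA-ADSC, against 4.94, 4.78 and 4.13 in BM-MSC and 4.18, 3.98 and 3.86 in AD-MSC, and was 9.64-fold higher (adjusted p = 0.00163). CDA, cytidine deaminase of pyrimidine salvage, was 11.7-fold higher, with EA-ADSC at 9.93, 11.51 and 10.91, BM-MSC at 6.78, 8.23 and 6.37 and AD-MSC at 7.80, 6.75 and 7.47 (adjusted p = 0.00818). ABCB1, the multidrug efflux pump, was 7.23-fold higher, with EA-ADSC at 6.84, 8.10 and 7.33, BM-MSC at 4.04, 4.34 and 4.08 and AD-MSC at 5.21, 5.22 and 4.51 (adjusted p = 0.0021). These 4 genes kept their calls without any 1 array. TNN, CDA and ABCB1 were among the 88 members that kept them under all 15 settings, and CFAP299 was not.

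More secreted proteins were among the higher members. PTHLH, parathyroid hormone-like hormone, was 6.79-fold higher, at 9.24, 7.30 and 7.21 in EA-ADSC, against 5.87, 5.91 and 5.66 in BM-MSC and 4.45, 4.83 and 4.23 in AD-MSC (adjusted p = 0.0131). EA-ADSC 1 was its highest array, and it kept its call without any 1 array. IL18, a cytokine of the interleukin 1 family, was 5.76-fold higher, at 9.0, 8.20 and 9.61 in EA-ADSC, against 6.91, 6.73 and 6.92 in BM-MSC and 5.65, 6.82 and 5.45 in AD-MSC (adjusted p = 0.0112, kept without any 1 array). RLN, relaxin, was 6.24-fold higher (adjusted p = 0.0267) and kept its call only without EA-ADSC 3 or AD-MSC 2. Neither PTHLH nor IL18 passed against BM-MSC alone (adjusted p = 0.108 and 0.0703).

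Among the lower members, ABI3BP, a matrix protein, stood at 3.99, 4.16 and 4.26 in EA-ADSC, against 6.65, 5.13 and 6.93 in BM-MSC and 9.95, 7.59 and 9.87 in AD-MSC. It was 11.7-fold lower than the average (adjusted p = 0.0174), 4.28-fold against BM-MSC and 32.0-fold against AD-MSC, and lost its call without any 1 EA-ADSC array or BM-MSC 1. APOA1, the main apolipoprotein of high-density lipoprotein, was 5.64-fold lower (adjusted p = 0.028) and kept its call only without BM-MSC 3, AD-MSC 1 or AD-MSC 2. SLC29A1, a nucleoside transporter, was 4.54-fold lower (adjusted p = 0.0188) and lost its call without EA-ADSC 1, EA-ADSC 2, BM-MSC 1 or BM-MSC 2.

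A pair of higher members has no gene name in the annotation. Probe set 15046006 stood at 6.31, 8.03 and 9.48 in EA-ADSC, against 3.15, 2.74 and 2.77 in BM-MSC and 2.67, 3.19 and 3.37 in AD-MSC, a log2 difference of 4.96 (adjusted p = 0.00449 in limma, kept without any 1 array). Probe set 15046024 stood at 4.89, 7.02 and 8.12 in EA-ADSC, against 2.68, 2.07 and 2.64 in BM-MSC and 3.17, 2.43 and 3.25 in AD-MSC, a log2 difference of 3.97 (adjusted p = 0.013, lost without EA-ADSC 2). In both the order of the EA-ADSC arrays was the same, and all 6 control arrays lay below the overall median.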
